A study of Ovis aries with 16 samples.

Results

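The ligand genes INHBA and TGFB2, the receptor gene ACVR1 and the decoy receptor gene BAMBI were examined in the left ventricle of fetal sheep given losartan or angiotensin II in utero. The array carried 7 probes for these 4 genes, out of 970 named genes, and the genes were found by matching the gene name, sequence record or description that the scanner files give each probe. The genes were selected on results of these same arrays, namely the differences between treated fetuses and their untreated twins. Those differences are therefore given below as a description, with no test. All 4 genes passed the filter on dim probes, which 496 named genes passed in all.

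Activins are dimers of inhibin beta subunits, and the product of INHBA forms activin A, while TGFB2 encodes the ligand TGF-beta 2. Ligands of this family bind pairs of serine/threonine kinase receptors on the cell surface, which phosphorylate SMAD proteins that move to the nucleus and regulate transcription. ACVR1 encodes a type I receptor of the family that transmits bone morphogenetic protein signals, and BAMBI encodes a membrane protein that resembles a type I receptor but lacks the kinase domain and dampens signalling. In the heart the family is known for its part in valve formation and in the control of fibroblasts and the extracellular matrix.

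The study held 16 fetal sheep from 8 twin pregnancies, and 1 fetus of each pair was treated. In twin sets 1 to 4 the treated fetus received losartan, which blocks the type 1 angiotensin II receptor, and in twin sets 5 to 8 it received angiotensin II, the peptide that acts on that receptor. Their co-twins were left untreated and serve as the reference, so each treated fetus was compared with the twin from the same pregnancy. Catheterization was at 125 to 126 days of a 145-day gestation, treatment lasted 5 days, and RNA from the left ventricle of each fetus was hybridized to 1 array. The labels describe the infusion both as continuous and as daily, and the tissue both as free wall and as free wall with septum. No dose is given in the labels.

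Each probe was a 60-base oligonucleotide, so a level below is the signal of that oligonucleotide and not of a whole transcript. The probes on which the values rest are printed 5′ to 3′ as the scanner files give them, so that it can be seen what part of each transcript was read. The pair of INHBA probes starts 1 base apart, at positions 1220 and 1221 of the RefSeq messenger RNA record named for them, and shares 59 bases. Both run over the end of the coding sequence, and the capitals mark the stop codon.
INHBA probe 1: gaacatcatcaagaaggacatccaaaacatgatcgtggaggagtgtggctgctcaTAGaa
INHBA probe 2: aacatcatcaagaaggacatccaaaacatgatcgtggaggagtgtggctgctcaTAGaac
TGFB2 probe: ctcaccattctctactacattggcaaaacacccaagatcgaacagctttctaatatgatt
ACVR1 probe 1: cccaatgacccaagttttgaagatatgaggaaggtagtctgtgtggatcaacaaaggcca
BAMBI probe 1: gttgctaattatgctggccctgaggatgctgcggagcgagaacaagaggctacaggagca
The INHBA probes read the same stretch and are 1 measurement rather than 2. TGFB2 had 1 probe. BAMBI and ACVR1 each had a second probe that does not overlap the one shown. BAMBI probe 1 covers positions 497 to 556 of its RefSeq messenger RNA record and its second probe positions 396 to 455. ACVR1 probe 1 was matched to its gene by its description (a type IA activin receptor) and the second by its symbol. No stretch of 25 bases of any of the 7 probes occurred in a probe for another gene on the array. Each gene is represented below by its brightest probe, probe 1.

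Levels are log2 of the processed red-channel signal minus the 75th percentile of the array, which was 1099 to 1670 units, and 57.3% to 64.1% of probes were well above background on an array. The arrays lay on 2 slides of 8, and slide and treatment were not balanced in the losartan arm, where 3 of 4 losartan fetuses but 1 of 4 untreated twins were on slide 2. In sets 2, 3, 6 and 8 both twins were on the same slide. In addition 3 arrays of slide 2 stood apart from the other 13 on the first principal component, which held 32.1% of the variance. These were the untreated twin of set 2 and the angiotensin II fetuses of sets 7 and 8, and their bright corner control spots read 17.2 to 17.7 on the log2 scale against 14.4 to 15.4 on the other 13 arrays. Over all 8966 tested probes, 1015 (11.3%) were higher on each of these 3 arrays than on any of the other 13. Estimates for the 4 genes, and the main counts of pathway genes, are given with and without sets 2, 7 and 8. For other single genes such estimates are not given. Of 20 cardiomyocyte markers, MB (myoglobin) was the 1 found among the named probes, and it was well above background on 16 of 16 arrays. The other 19 were not found under their symbols, so a probe for them under another name, or with no gene name, would be missed. In a piece of ventricle, fewer cells of a type and less RNA per cell cannot be told apart.

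INHBA was lower in each losartan fetus than in its untreated twin and higher in each angiotensin II fetus than in its untreated twin. With losartan the mean difference was a 2.35-fold lower level, and with angiotensin II a 1.41-fold higher level. INHBA was well above background on 16 of 16 arrays. In the losartan fetuses of sets 1 to 4 its level was -1.57, -2.52, -1.18 and -2.18, and in their untreated twins it was -0.54, -1.08, -0.02 and -0.88. The 4 losartan arrays all lay below the 4 arrays of the untreated twins. In the angiotensin II fetuses of sets 5 to 8 the level was -0.79, -0.76, -0.39 and -1.44, and in their untreated twins -1.25, -1.49, -0.74 and -1.90. These 2 groups overlapped, and within each group the 4 levels spanned more than the difference between any pair of twins of this arm.

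The log2 ratios of treated to untreated twin for INHBA were -1.03, -1.44, -1.16 and -1.30 in sets 1 to 4. With angiotensin II they were 0.46, 0.73, 0.34 and 0.46 (sets 5 to 8). The ratios within an arm were close to each other while the levels were not. The estimate was -1.23 with losartan (SE 0.11, SD of the 4 ratios 0.18) and 0.50 with angiotensin II (SE 0.11, SD 0.16). INHBA probe 2 gave -1.32 and 0.59 over the nearly identical sequence, with the same sign in 8 of 8 twin sets. Within slide 1, which held 1 losartan fetus and 3 untreated twins of that arm, the unpaired losartan estimate was -0.70, and within slide 2 it was -1.01. In sets 2 and 3, where both twins were on 1 slide, the paired estimate was -1.30. The angiotensin II estimate was 0.34 within slide 1 and 0.66 within slide 2. Without sets 2, 7 and 8 the estimates were -1.16 and 0.60, close to those over all sets.

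TGFB2 was also lower in each losartan fetus and higher in each angiotensin II fetus than in the untreated twin, but its ratios were far more scattered than those of INHBA, and its probe was dim. It was well above background on 4 of 4 arrays of the untreated twins of the losartan arm, on 1 of 4 losartan arrays, on 4 of 4 angiotensin II arrays and on 3 of 4 arrays of their untreated twins. TGFB2 thus passed the filter on dim probes only through the untreated twins of the losartan arm and the angiotensin II fetuses, the groups where its mean was highest. That favours a lower reading with losartan and a higher one with angiotensin II. The processed TGFB2 signal was 155, 71.4, 37.7 and 98.4 units in the losartan fetuses of sets 1 to 4, against 116, 448, 140 and 141 units in their twins. Before scaling, the losartan fetus of set 1 thus read above its twin. The 75th percentile was 1670 units on its array and 1099 on that of the twin, so the sign in set 1 depends on scaling. The 3 dimmest losartan values were the ones not well above background, so their size is uncertain. On the normalized log2 scale the losartan fetuses read -3.43, -4.04, -4.95 and -3.74 and their untreated twins -3.24, -1.70, -3.35 and -3.34. The angiotensin II fetuses of sets 5 to 8 read -3.28, -3.35, -1.97 and -2.73 and their untreated twins -3.42, -3.51, -3.61 and -3.83. Neither pair of groups overlapped, but the gaps were narrow, from -3.43 to -3.35 in the losartan arm and from -3.42 to -3.35 in the angiotensin II arm.

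The highest TGFB2 levels were on the 3 arrays that stand apart, where it read -2.73 to -1.70, while the other 13 arrays read -4.95 to -3.24. The TGFB2 ratios were -0.19, -2.33, -1.60 and -0.41 for losartan (sets 1 to 4), and 0.14, 0.16, 1.64 and 1.10 for angiotensin II (sets 5 to 8). The largest ratio of the losartan arm was that of set 2, and the largest of the angiotensin II arm those of sets 7 and 8, each set having 1 array that stands apart. The estimate was -1.13 with losartan (SE 0.36, SD of the 4 ratios 1.01) and 0.76 with angiotensin II (SE 0.36, SD 0.74). Without sets 2, 7 and 8 it was -0.73 and 0.15, and leaving out set 2 alone gave -0.73 and set 7 alone 0.46. Within slide 1 the losartan estimate was -1.64, resting on 1 losartan array, that of set 3, which was not well above background. Within slide 2 the losartan estimate was -2.03, resting on 1 untreated array of that arm, that of set 2, which stands apart. The angiotensin II estimate was 0.24 on slide 1 and 1.27 on slide 2, whose angiotensin II arrays are both among those that stand apart. With normexp background correction (a model of signal and background for each spot) the losartan estimate was -0.71 and that for angiotensin II 0.55.

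Over all sets ACVR1 differed little between treated and untreated fetuses, and without sets 2, 7 and 8 its estimates were larger. Its level was -2.33, -2.57, -2.35 and -2.56 in the losartan fetuses of sets 1 to 4 and -2.18, -2.55, -2.06 and -2.24 in their twins. Each losartan fetus was below its twin, in set 2 by a ratio of -0.02, and the groups overlapped. In the angiotensin II fetuses of sets 5 to 8 the level was -2.06, -2.18, -2.30 and -2.89, and in their twins -2.36, -2.44, -2.07 and -2.48. The ratios there were 0.29 (set 5) and 0.26 (set 6), but -0.23 (set 7) and -0.42 (set 8) where the treated arrays stand apart. The estimate was -0.19 with losartan (SE 0.13, SD of the 4 ratios 0.14) and -0.02 with angiotensin II (SE 0.13, SD 0.35). Without sets 2, 7 and 8 the estimates were -0.25 with losartan (SE 0.10) and 0.28 with angiotensin II (SE 0.13). The losartan estimate was 0.08 in the authors' deposited values and 0.06 within slide 2, so neither sign held under all of these settings. The second ACVR1 probe gave -0.09 and 0.01, with the same sign as the first in 7 of 8 sets.

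BAMBI was higher in each angiotensin II fetus than in its twin, by 1.5-fold on average, while its ratios with losartan were small and of both signs. Its level was -2.04, -2.37, -1.69 and -1.43 in the angiotensin II fetuses of sets 5 to 8 and -2.57, -2.53, -2.54 and -2.25 in their untreated twins. The untreated twin of set 8 lay above the angiotensin II fetus of set 6, so the groups overlapped. In the losartan fetuses of sets 1 to 4 it was -2.43, -1.69, -2.15 and -1.98, and in their twins -2.12, -1.68, -2.28 and -1.91. Losartan was lower in 3 of these 4 sets and higher in set 3.

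The BAMBI ratios with angiotensin II were 0.52, 0.17, 0.85 and 0.82 in sets 5 to 8, and again the larger values were those of sets 7 and 8. The estimate was 0.59 with angiotensin II (SE 0.13, SD of the 4 ratios 0.32) and -0.07 with losartan (SE 0.13, SD 0.18). Without sets 2, 7 and 8 the angiotensin II estimate was 0.35 and the losartan estimate -0.09. Within slides the angiotensin II estimate was 0.33 and 0.85. On the 3 arrays that stand apart BAMBI read -1.69 to -1.43, against -2.57 to -1.69 on the other 13. The second BAMBI probe gave a smaller estimate, 0.38 with angiotensin II, higher in 4 of 4 sets, and 0.04 with losartan. The signs of its ratios matched those of the first in 7 of 8 sets.

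**Figure D1:**
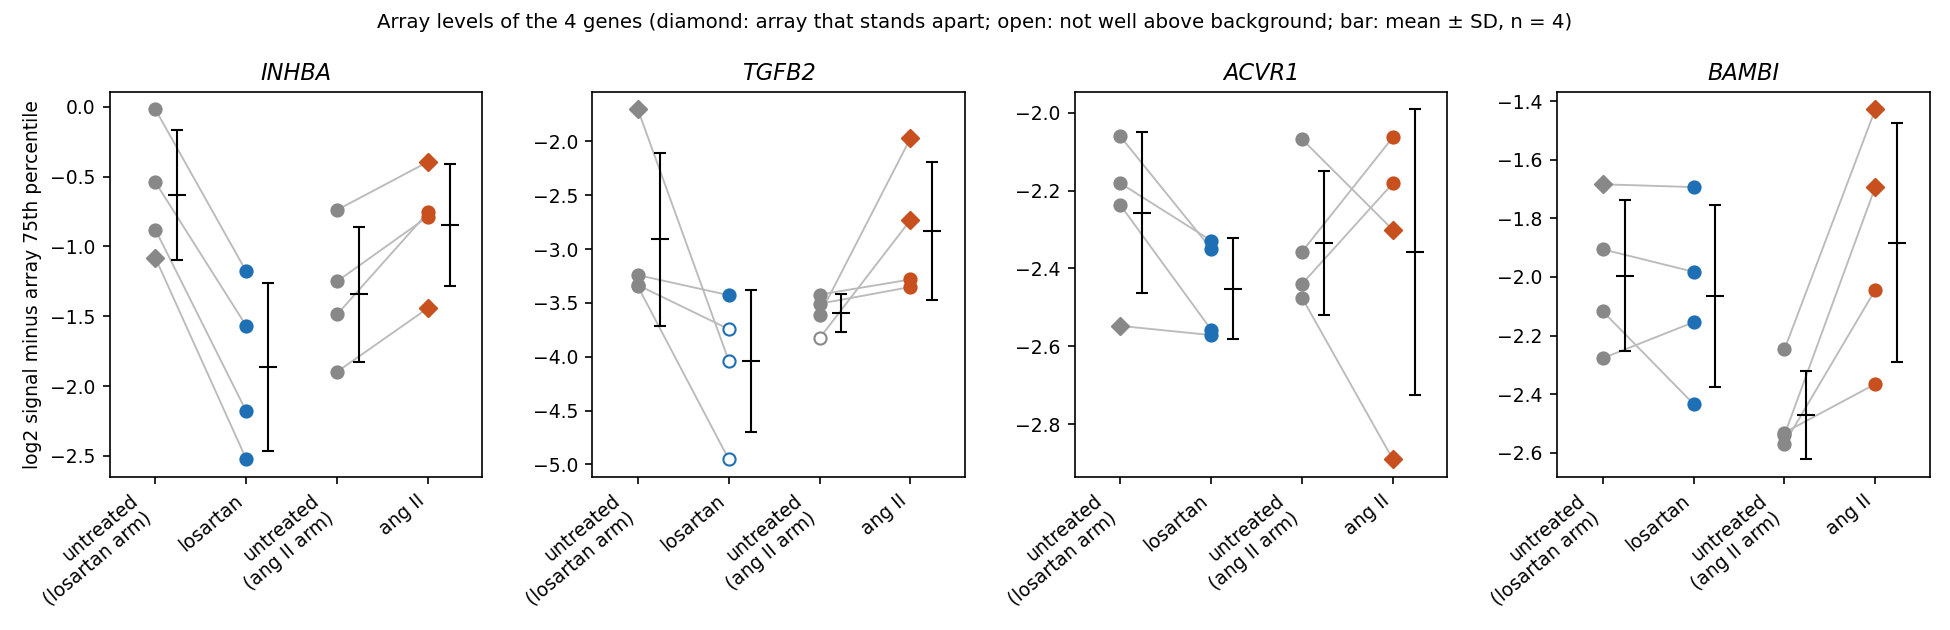
Levels of INHBA, TGFB2, ACVR1 and BAMBI on the 16 arrays, as log2 signal minus the 75th percentile of the array, by group, with grey lines joining twins. Diamonds are the 3 arrays that stand apart, open symbols are values not well above background and bars are the mean ± SD of 4 arrays; each panel has its own axis. The 4 INHBA lines to losartan all run down and the 4 to angiotensin II all run up, and the 3 diamonds are the highest points of the TGFB2 panel.

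**Figure D2:**
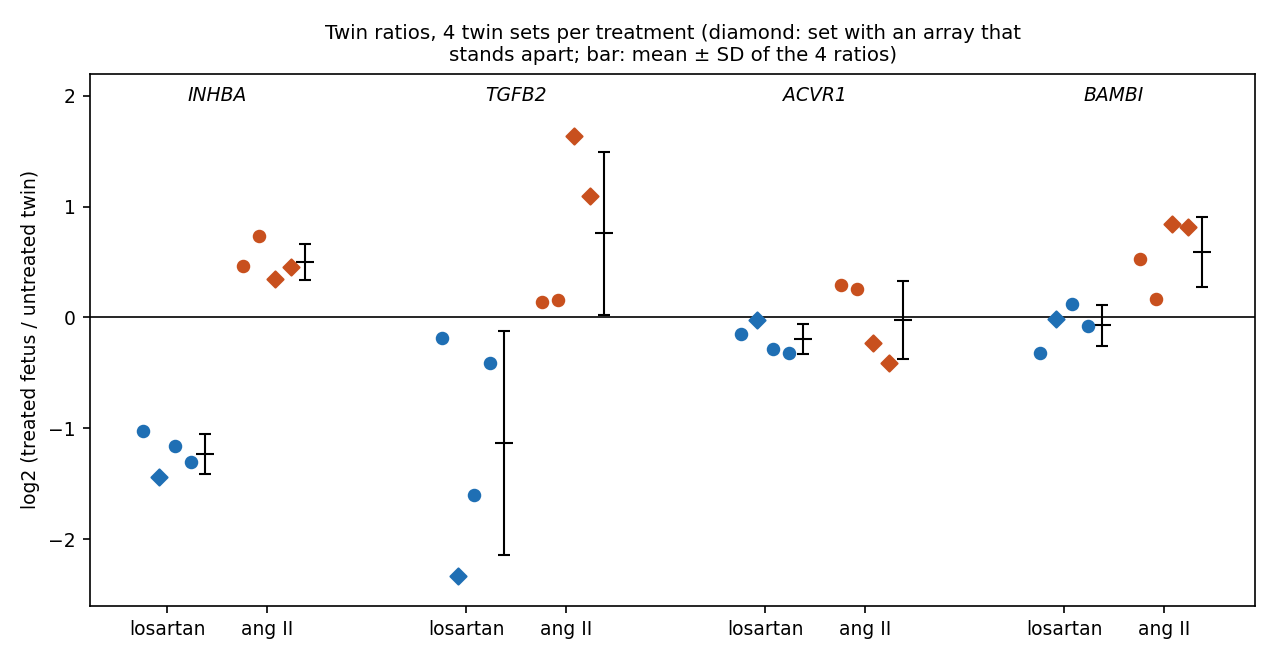
Log2 ratios of treated fetus to untreated twin for the 4 genes, 4 twin sets per treatment in order of set number, with the mean ± SD of the ratios as bars. Diamonds are sets 2, 7 and 8, which contain an array that stands apart. The INHBA ratios are tightly grouped at -1.44 to -1.03 and 0.34 to 0.73, and the TGFB2 ratios are spread from -2.33 to -0.19 and from 0.14 to 1.64.

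INHBA and TGFB2 were thus the genes with opposite signs under the 2 treatments in every twin set, BAMBI was higher in 4 of 4 sets with angiotensin II and lower in 3 of 4 with losartan, and ACVR1 was lower in 4 of 4 with losartan and higher in 2 of 4 with angiotensin II. These counts were part of what selected the genes, and they are set beside the array background only for scale. Of all tested probes, 999 (11.1%) were lower in 4 of 4 sets with losartan, 688 (7.67%) were higher in 4 of 4 with angiotensin II and 276 (3.08%) were both. The losartan arrays of INHBA and of TGFB2 all lay below those of their untreated twins, which held for 367 probes (4.09%), and the angiotensin II arrays of TGFB2 all lay above those of the twins, which held for 148 (1.65%). For TGFB2 the filter on dim probes favoured both of these readings, as given above. In limma with Benjamini-Hochberg adjustment, 109 probes (1.22%) passed an adjusted p of 0.05 with losartan, of which 89 were lower and 20 higher, against 253 lower and 180 higher in the authors' deposited values. With angiotensin II 0 probes (0%) passed in limma, while 937 had an unadjusted p under 0.05. The difference between the 2 treatment effects passed for 148 probes (1.65%), of which 117 were higher under angiotensin II and 31 lower, against 789 and 943 in the authors' deposited values. The losartan count was 64, 33 and 49 without set 1, 3 and 4 in turn, and the count for the difference was 86, 59, 76, 69, 54 and 48 without set 1, 3, 4, 6, 7 and 8 in turn.

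The difference between the angiotensin II and the losartan effect, on the log2 scale, was 1.73 for INHBA (SE 0.15), 1.89 for TGFB2 (SE 0.51), 0.66 for BAMBI (SE 0.19) and 0.17 for ACVR1 (SE 0.19). Without sets 2, 7 and 8 it was 1.76 for INHBA (SE 0.18), 0.88 for TGFB2 (SE 0.40), 0.44 for BAMBI (SE 0.21) and 0.53 for ACVR1 (SE 0.16). The untreated groups used as references for these differences did not have the same level. Each fetus gave 1 array, so no level before treatment was measured. Mean INHBA was -0.63 ± 0.46 in the untreated twins of the losartan arm and -1.34 ± 0.48 in those of the angiotensin II arm (SD, n = 4 each), a difference of -0.71. With slide as a further block that INHBA difference was -0.58. Mean TGFB2 was -2.91 ± 0.80 and -3.59 ± 0.17 in these groups, and without the array that stands apart in set 2 the difference of -0.69 was -0.28. For BAMBI the untreated means were -2.0 ± 0.26 and -2.47 ± 0.15 (SD, n = 4 each), and for ACVR1 -2.26 ± 0.21 and -2.34 ± 0.18.

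In order of its group means, INHBA was lowest with losartan (-1.86 ± 0.60), followed by the untreated twins of the angiotensin II arm, angiotensin II (-0.84 ± 0.44) and the untreated twins of the losartan arm, and each group overlapped the next. The INHBA level of angiotensin II fetuses thus lay within the span of the untreated fetuses of the arms taken as 1 group. TGFB2 had losartan (-4.04 ± 0.66) lowest and angiotensin II (-2.84 ± 0.64) highest, next to the untreated twins of the losartan arm, and the 2 untreated groups between them did not overlap, by a narrow gap of -3.42 to -3.35. For BAMBI the order ran from the untreated twins of the angiotensin II arm through losartan (-2.07 ± 0.31) and the untreated twins of the losartan arm to angiotensin II (-1.88 ± 0.41), with overlap between all neighbours. The 4 ACVR1 means, -2.45 ± 0.13 with losartan and -2.36 ± 0.37 with angiotensin II among them, overlapped throughout (SD, n = 4 for each mean).

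Among themselves the 4 genes did not follow a single pattern. Over the 8 twin ratios INHBA and TGFB2 had a Pearson r of 0.78 and INHBA and BAMBI of 0.75, values that the opposite signs of the arms fix in part. Over the levels these pairs had lower values, with r of 0.37 for INHBA and TGFB2 and -0.15 for INHBA and BAMBI on 16 arrays, and 0.41 and -0.34 on the 13 arrays that do not stand apart. INHBA and ACVR1 had an r of 0.69 over the levels on 16 arrays, 0.93 over the 13 arrays left without those that stand apart and 0.39 over the 8 ratios. These coefficients describe arrays that share twins, slides and scaling, and no p is given.

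The named genes most like each of the 4 over the 16 arrays, out of 492 compared, were found by Pearson r. For INHBA they were DNMT1, the maintenance DNA methyltransferase (r = 0.83), CPE, carboxypeptidase E (0.83), TIMP1, an inhibitor of metalloproteinases (0.83), TYMS, thymidylate synthase (0.76), and LMNB1, a nuclear lamin (0.76). Over the 8 twin ratios the r of these genes with INHBA was 0.90, 0.84, 0.93, 0.93 and 0.81. Their losartan estimates were -0.30, -0.69, -0.45, -1.82 and -1.08, given as a description only, since likeness to a gene chosen on this contrast selected them. For TGFB2 the most alike were BCL2, an inhibitor of apoptosis (r = 0.90), RPA1, a subunit of the single-strand DNA binding complex (0.86), TXN, thioredoxin (0.85), OMYHCS, a name kept from the files (0.84), and H2AZ1, a histone variant (0.83). Without the arrays that stand apart these values were lower, at 0.63, 0.48, 0.65, 0.53 and 0.73 over the other 13. For ACVR1 the first were SLC2A3, a glucose transporter (0.86), and CENP-C, a centromere protein (0.85), followed by SRSF3, CTSS and DNMT1 (0.80 to 0.76). For BAMBI they were CTSD, a lysosomal protease (0.81), TIMP3 (0.80), LIPA, lysosomal acid lipase (0.78), CTSB (0.76) and RPL34 (0.75), and over the 13 arrays their r was 0.37 to 0.64.

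The rest of the pathway was read from a textbook list of 105 genes, which includes the 4 genes described above. Of the others, 37 had a named probe on the array and 23 passed the filter on dim probes. The list was written with earlier results of these arrays known, and its counts describe these genes only. With losartan 18 of the 23 had an estimate below 0, where 48.4% of all tested probes lay below 0. The median was -0.25, against 0.01 over all tested probes. Of the 18, 1 passed the threshold in limma, where 1.22% of all probes passed. This was SNAI2, whose limit from the filter is given below. With angiotensin II 17 of 23 lay above 0 and 0 passed in limma (2 had an unadjusted p under 0.05, against 10.5% of all probes), with a median of 0.13 against -0.03 over all probes. Without sets 2, 7 and 8 these counts were 20 of 23 below 0 with losartan and 13 of 23 above 0 with angiotensin II, with 0 passing in limma. Genes of the list that did not pass the filter, such as TGFB1, TGFB3, TGFBR1, ACVR1B, SMAD3 and SMAD7, were well above background on 0 to 4 of the 16 arrays and got no estimate.

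Of the other ligands, 4 of 10 passed the filter and 0 passed in limma under either treatment. BMP6, a bone morphogenetic protein, had estimates of -0.28 with losartan (SE 0.15) and 0.40 with angiotensin II (SE 0.15, adjusted p = 0.459, limma). The BMP6 ratio was -0.76 in set 2, 0.60 in set 7 and 0.68 in set 8, each with an array that stands apart, and -0.35 to 0.17 in the other sets. INHA, the alpha subunit that pairs with beta subunits to form inhibins in place of activins, had -0.25 and 0.30, with ratios of -0.62 in set 2 and 0.99 in set 7. BMP7 had -0.04 and 0.20. Of the other receptors, 4 of 6 passed the filter. ACVR2B, a type II receptor for activin, had -0.35 with losartan and 0.45 with angiotensin II (limma adjusted p = 0.553 and 0.483), lower in 4 of 4 and higher in 4 of 4 sets. Its ratio was -1.22 in set 2, 0.79 in set 7 and 0.85 in set 8, with -0.10 to 0.11 in the other 5 sets, so the larger ratios were those of sets with an array that stands apart. TGFBR2, the type II receptor for TGF-beta, had estimates of 0.04 and 0.00, and BMPR1B, a type I receptor for bone morphogenetic proteins, 0.02 and -0.27.

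Among the SMADs, SMAD2, which carries activin and TGF-beta signals, had estimates of -0.04 and 0.02, and SMAD4, the partner shared by the family, -0.06 and 0.14. The second tested SMAD4 probe had the opposite signs, at 0.06 and -0.11. Neither gene was past the threshold under either treatment in limma. Among the other antagonists and binding proteins 4 of 6 were measured. FST, follistatin, which binds and neutralizes activin, had -0.50 with losartan (SE 0.20, limma adjusted p = 0.347), lower in 3 of 4 sets, and 0.15 with angiotensin II. The matrix proteoglycans DCN and BGN, which bind TGF-beta, had -0.25 and -0.26 with losartan and -0.07 and 0.16 with angiotensin II. The second tested probe of DCN gave -0.35 and -0.18, and that of BGN gave larger estimates, at -0.80 and 0.64.

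Of 28 target genes listed, 9 had a named probe, and all 9 passed the filter. All 9 had estimates below 0 with losartan, with a median of -0.47. In limma 6 had an unadjusted p under 0.05, as did 1105 of all 8966 tested probes (12.3%). SNAI2, which encodes a transcription factor of epithelial to mesenchymal transition, fell by 0.55 in log2 units with an SE of 0.11 (limma adjusted p = 0.0490). Its probe was well above background on 1 of 4 losartan arrays and 4 of 4 of their untreated twins. In the angiotensin II arm it was so on 3 of 4 treated and 2 of 4 untreated arrays. It thus passed the filter on dim probes only through the untreated twins of the losartan arm, the group where its mean was highest. That favours a lower reading with losartan, so its call is given as a description. The call also depended on the processing, and it passed in 2 of 20 alternatives (adjusted p 0.0482 to 0.823, limma). Leaving out any of sets 1 to 7 ended the call, with adjusted p of 0.0567 to 0.237 in limma, while without set 8 it was 0.0484. CCN2, a matricellular growth factor, had -0.90 with losartan (SE 0.20, adjusted p = 0.0710, limma) and 0.59 with angiotensin II, and TIMP1 had -0.45 (SE 0.09, adjusted p = 0.0518, limma) and 0.19. Both were lower in 4 of 4 sets with losartan and higher in 4 of 4 with angiotensin II. With angiotensin II 6 of the 9 targets lay above 0, and COL1A1, COL3A1 and VIM, which encode collagens and vimentin, lay below it at -0.19, -0.38 and -0.02. Their probes disagreed, since the second tested probe of COL1A1 was at 0.71, the 4 other probes of COL3A1 at -0.02 to 0.31 and the second of VIM at 0.03, so no direction is given for them with angiotensin II. Without sets 2, 7 and 8, 9 of 9 targets were still below 0 with losartan and 5 of 9 above 0 with angiotensin II.

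The difference between the treatment effects was tested for the same 23 genes, and 3 passed in limma, all targets. Of all 8966 tested probes, 148 (1.65%) passed. The list was written with earlier results known, so the count describes these genes only. The difference was 1.49 for CCN2 (SE 0.28, adjusted p = 0.0332, limma) and 0.65 for TIMP1 (SE 0.13, adjusted p = 0.0436, limma). For SNAI2 it was 0.74 (SE 0.15, adjusted p = 0.0497, limma), with the same limit from the filter on dim probes as above. No ligand, receptor, SMAD or binding protein passed, with a smallest adjusted p of 0.140 for BMP6. The 3 calls were near the threshold. CCN2 passed in 9 of 21 alternatives, TIMP1 in 5 of 21 and SNAI2 in 3 of 20. Leaving out any of sets 2 to 8 ended the CCN2 call (limma adjusted p 0.0519 to 0.0855), and leaving out set 1 kept it (0.0357). For TIMP1 and SNAI2 leaving out any of the 8 sets ended the call (limma adjusted p 0.0720 to 0.128 and 0.0615 to 0.133).

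**Figure D3:**
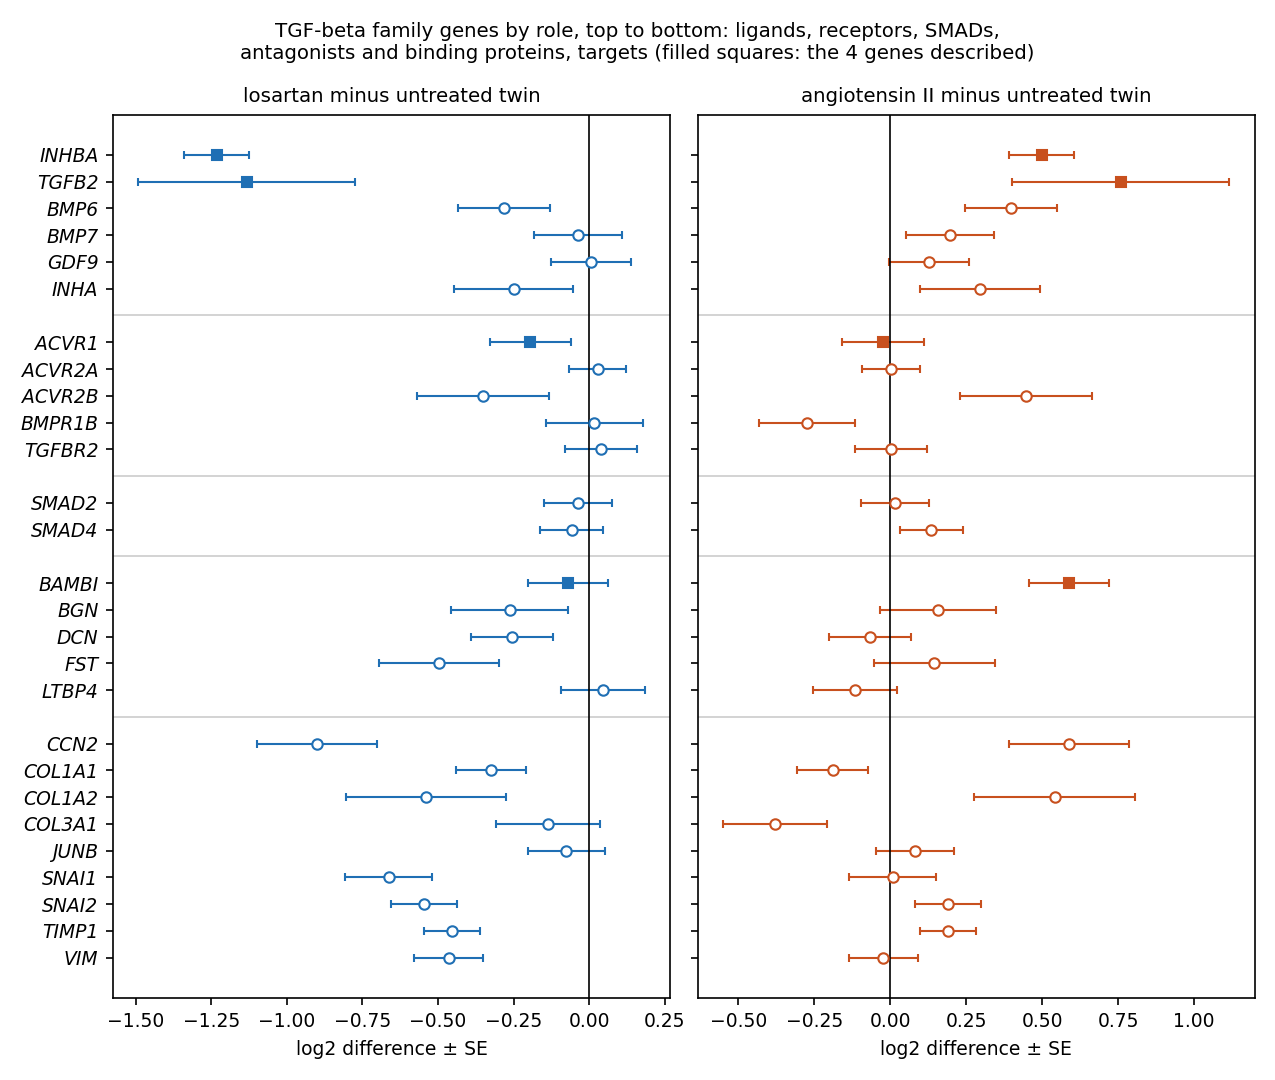
Estimates ± SE (log2 difference from the untreated twin, limma) with losartan (left) and angiotensin II (right) for the 27 measured genes of the family, grouped by role, with the 4 genes described here as filled squares. INHBA and TGFB2 lie furthest left with losartan, the 9 targets all lie left of 0 there, and the receptors and SMADs lie close to 0 apart from ACVR2B and BMPR1B.

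Of the smooth muscle and mural list, 2 of 9 markers had a named probe. Both read lower with losartan than in the twins. With angiotensin II they read higher without passing the threshold. The losartan estimate was -1.42 for CNN1 (adjusted p = 0.0248, limma) and -1.06 for MYL9 (adjusted p = 0.00851, limma), each lower in 4 of 4 sets. Of all 8966 tested probes, 109 (1.22%) passed with losartan, 89 of them lower. The marker lists were chosen with earlier results known, so this describes the 2 markers only. With angiotensin II their estimates were 1.09 and 0.93 (adjusted p = 0.449 and 0.426, limma), each higher in 4 of 4 sets. Their mean level was 2.51 to 2.82 in losartan fetuses, 3.61 to 4.24 in the untreated twins, 4.62 to 5.17 in angiotensin II fetuses and 3.32 to 4.37 in their twins. The cardiomyocyte marker MB read 5.61 to 5.83 in angiotensin II fetuses and 5.86 to 6.00 in their untreated twins, lower in 4 of 4 sets, and these groups did not overlap, as for 212 of all tested probes (2.36%) in that direction. Its estimate was -0.18 (SE 0.10, adjusted p = 0.513, limma), against 0.07 with losartan (adjusted p = 0.836, limma), where its groups overlapped. The 6 measured fibroblast markers of 11 had a mean level of 2.52 to 2.84 with losartan and 2.84 to 3.1 in the twins, and of 2.57 to 2.90 with angiotensin II and 2.56 to 2.89 in the twins. The 2 measured endothelial markers of 10 spanned -0.67 to -0.01 and -0.41 to 0.00 in the losartan arm. The 2 measured leukocyte markers of 12 spanned -3.56 to -2.98 and -3.49 to -2.78, and the erythroid marker HBB, 1 of 7 listed, 1.64 to 4.69 and -0.58 to 3.27 in that arm. In the angiotensin II arm the treated and untreated spans were -0.48 to -0.01 and -0.49 to 0.01 for the endothelial markers, -3.53 to -3.19 and -3.31 to -3.10 for the leukocyte markers and -1.39 to 3.27 and 0.31 to 3.77 for HBB. The part of cell types in the INHBA, TGFB2 and BAMBI values was not tested.

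**Figure D4:**
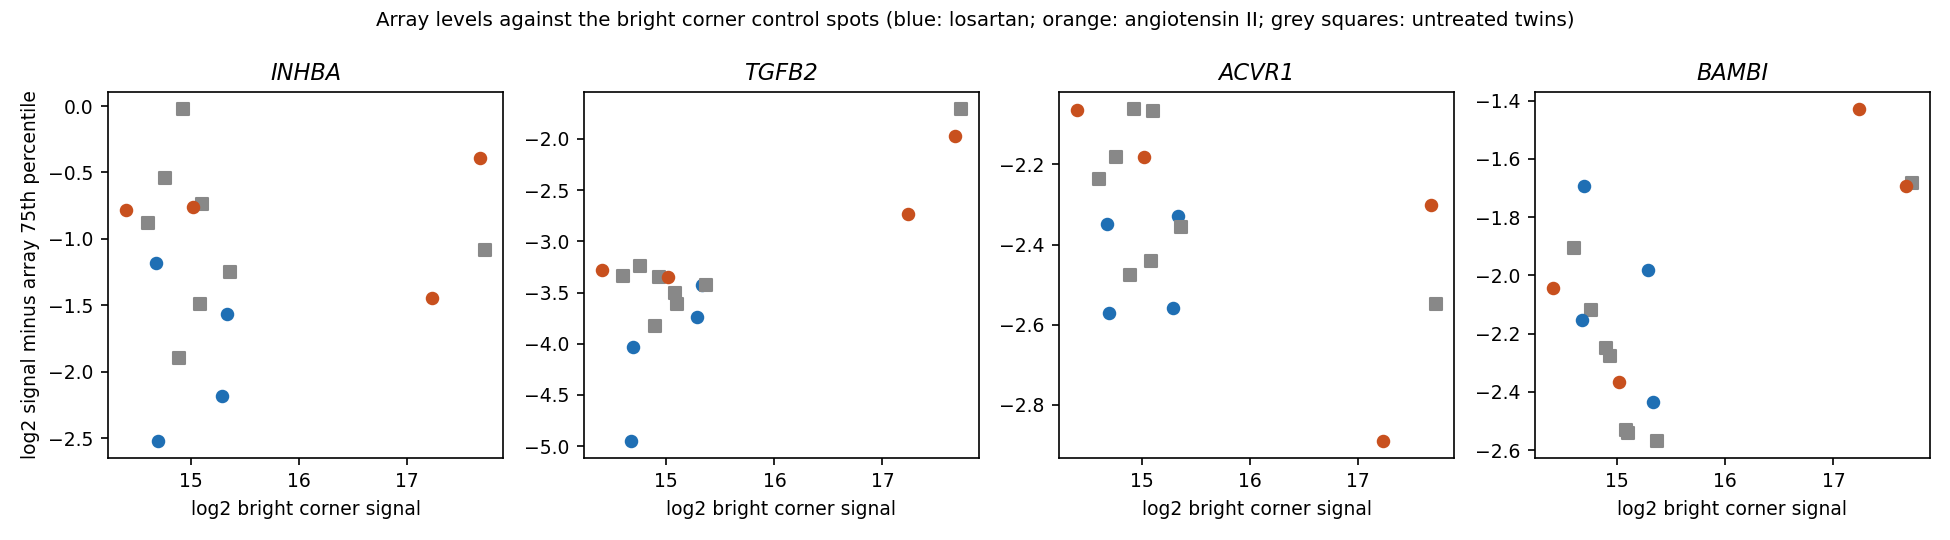
Level of each gene (log2 signal minus the 75th percentile of the array) against the log2 signal of the bright corner control spots, 1 point per array, with losartan in blue, angiotensin II in orange and untreated twins as grey squares. The 3 arrays at 17.2 to 17.7 hold the highest TGFB2 values, while INHBA on them (-1.44 to -0.39) lies within the span of the other 13 arrays (-2.52 to -0.02).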

How the data were processed

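RNA from the left ventricle of 16 fetal sheep was labelled with Cy5 and hybridized in 1 colour to an Agilent sheep array, per the labels. The deposited scanner files hold spot intensity from Agilent Feature Extraction 10.7.3.1, background-subtracted and detrended within each array and not normalized between arrays, per the file headers; the submitters' processing notes name Agilent Feature Extraction. The authors' deposited value table is on a natural log scale (Pearson r with log mean spot signal 0.998 to 0.999 by array, column medians 5.75 to 5.77). How they normalized it is not recorded in the labels or headers, and it served as an alternative.

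Control and outlier spots were left out, spots of 1 probe averaged, and log2 of the processed signal was taken relative to the 75th percentile of each array. Probes well above background on all arrays of any of the 4 groups were tested (8966 of 15008). Of the 15008 probes, 1630 have a gene name here and 13378 do not, so most tested probes are unnamed. Names came from RefSeq genes of ARS-UI_Ramb_v3.0, by accession for 727 probes, symbol 511, gene identifier 125, sequence cluster 57, description 21 and synonym 20, and 169 kept the file's name. Since the files name no build, no coordinates of that assembly are used. A gene is represented by its brightest tested probe on average.

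The model, in limma 3.58.1 under R 4.3.3, was fitted with the 8 twin sets as fixed blocks and 1 term per treatment (6 residual degrees of freedom, prior 3.68), two-sided, with Benjamini-Hochberg adjustment over all tested probes, after being tested on simulated data. Twin pairing comes from the labels. Deviations from group means correlated at -0.04 to 0.53 within twin sets (mean 0.24). Genes and lists were chosen with earlier results of these data known. Besides the 4 genes, the text names each further pathway gene past the threshold and, per role, the 3 with the smallest unadjusted p, and for likeness the 5 genes with the highest r. COL1A1, COL3A1, VIM and the dim genes named lie outside that rule and were chosen after their values were seen. The 21 alternatives covered background correction, scaling, value source, dim-probe filter, twin block, slide, probe choice and twin sets left out. Each fetus is 1 biological sample and 1 array, and the number of arrays limits the precision. Figures were drawn with matplotlib 3.10.9.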

Additional observations from a re-analysis of the deposited data

Results flagged for a closer look

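Single arrays lay far from the others of their group in 5 of 72 groups examined for the 4 genes and the 14 other pathway genes named; chance flags about 1 in 20 groups. TGFB2 read -1.70 in the untreated twin of set 2, where the next of the 4 was -3.24, and ACVR2B read -2.09 on the same array, where the next was -2.91. This array is one of the 3 that stand apart. The untreated twin of set 8, which is not, gave the other 3: BAMBI at -2.25 against a next value of -2.53, TGFBR2 at -2.34 against -2.76, and SMAD4, as the lowest of its group, at -1.88 against -1.66.

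The effect of angiotensin II minus that of losartan had opposite signs in every twin set of the arms for INHBA (1.73) and TGFB2 (1.89), which were selected on these contrasts, so the difference was not tested. The same held for ACVR2B (0.80, adjusted p = 0.194, limma), CCN2 (1.49) and TIMP1 (0.65), and the difference passed its test in limma for CCN2, TIMP1 and SNAI2 (0.74). SNAI2 had passed the filter on dim probes only through the untreated twins of the losartan arm, and TGFB2 only through those twins and the angiotensin II fetuses.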

How the results depend on the processing

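Of 292 recomputed values of the 4 genes, 14 changed sign, all of them of ACVR1 or of the losartan effect of BAMBI. INHBA kept its sign in all of its alternatives, with estimates of -1.30 to -0.70 for losartan and 0.34 to 0.66 for angiotensin II, and so did TGFB2, with -2.03 to -0.71 and 0.15 to 1.27. Of 876 values of the 14 other pathway genes, 63 lost and 15 gained a pass of the threshold, and 0 reversed past it. The array limits TGFB2 most, since its probe was not well above background on 4 of 16 arrays. It could not be fitted under the filter that asks for all 16 arrays. The cause of the changes below was not tested.

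With no replicate block for the twins, 0 probes passed for losartan and 3 for the difference of the effects (0 pathway genes in each), and with a random paired block 68 for losartan. In the authors' values 433 and 1732 passed (pathway genes 4 and 8), INHBA had -0.91 with losartan and a difference of 1.39, and ACVR1 0.084 and -0.25. With normexp ACVR1 had -0.050 and -0.12. The filter on all 16 arrays left 57 and 98 probes (pathway losartan 0), no filter 0 and 1 pathway genes, and the mean of probes 0 and 1. Slide as a block gave 71 and 427 (pathway losartan 0). Within slide 1, 42 and 38 passed (pathway 0 and 0), with INHBA at -0.70 and a difference of 1.04, and a BAMBI difference of 0.39. Within slide 2, 546, 353 and 1881 passed for losartan, angiotensin II and the difference (pathway 3, 2 and 5). There INHBA had -1.01 with losartan, ACVR1 0.062, BAMBI -0.35. The differences were 3.30 for TGFB2, -0.24 for ACVR1 and 1.20 for BAMBI, and between untreated arms -1.92, 0.13 and -0.73. In twin sets that shared a slide 0 passed for losartan and for the difference (pathway 0 and 0). Without twin sets 2, 7 and 8, 1 probe passed for angiotensin II and 76 for the difference (pathway 0 for losartan and the difference), and the differences of TGFB2 and ACVR1 were 0.88 and 0.53. Leaving out 1 twin set gave 33 to 99 probes for losartan and 48 to 109 for the difference, and 0 to 1 pathway genes for each.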
